A study of Mus musculus with 2 samples.

Results

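The S100 proteins and the annexins were followed through 10 genes, 5 of each family (*S100a1*, *S100a4*, *S100a6*, *S100a10*, *S100a11*, *Anxa1*, *Anxa2*, *Anxa3*, *Anxa4* and *Anxa5*). They were taken by gene symbol, and all 10 were among the 19829 genes of the table. The data were RNA sequencing values of whole mouse kidneys with acute kidney injury (AKI), with 1 wild-type (WT) library and 1 library of the transgenic (TG) line that overexpressed *Inmt*, an N-methyltransferase, in the proximal tubules. The libraries carried the names WT+AKI and TG+AKI. Per the methods, both groups received high-dose voclosporin, a calcineurin inhibitor, at 30 mg/kg per day for 2 weeks from 8 weeks of age, and both went through 30 min of bilateral ischemia followed by reperfusion at 14 weeks of age. The sample records differ on this point, since voclosporin appears in the design text of the series while each sample is entered as untreated. The promoter that drove the transgene was not given in the sources used here, nor was it stated whether a library came from 1 animal or from a pool. There was no uninjured and no untreated kidney in the table.

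S100 proteins are small proteins that bind calcium through a pair of EF-hands, mostly act as dimers, and change shape on binding so that they can hold a target protein. Annexins are calcium-dependent proteins that bind the acidic phospholipids of membranes. The families meet in complexes: a dimer of S100A10 holds annexin A2 at the plasma membrane, and S100A11 binds annexin A1. In the kidney these proteins are known from tubular epithelium, interstitial cells and infiltrating leukocytes, and several of them are known to rise when epithelium is injured and repaired.

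With 1 library per group, there was no replicate check on any difference, and the spread between mice could not be measured. Each ratio between the libraries is given with a 95% Clopper-Pearson interval from the reads of both, in brackets. Intervals of shares and of ratios between genes within a library use the reads of that library. Changes of such ratios between genes have an interval from a log-normal approximation. All these intervals cover counting error only. Depth, taken as the reads of all listed genes together, was 38542764 for WT+AKI and 36427421 for TG+AKI. Reads outside these genes are not known from the values. A value is a scaled read count, so that 1 read stood for 0.0236 in WT+AKI and 0.0302 in TG+AKI. The comparison took in the 10294 genes whose value reached 10 in either library, and a gene was counted as changed where log2(value + 1) differed by at least 1. The value of the *Inmt* transcript was 10.4 without and 402.8 with the transgene, in the direction of the transgene label, although the title of the TG sample also speaks of a conditional knockout. Transcripts that define kidney segments were present in both libraries, such as *Umod* of the thick ascending limb at 1427.1 and 1921.1.

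Of the 10 members, 9 were compared and 7 were at least 2-fold lower in TG+AKI, whereas none was at least 2-fold higher. Over all compared genes, 7.12% were at least 2-fold lower and 5.74% at least 2-fold higher. The 7 genes were *S100a6*, *S100a10*, *S100a11*, *Anxa1*, *Anxa2*, *Anxa3* and *Anxa5*. *Anxa4* was lower by less than 2-fold, *S100a1* was near equal in the libraries, and *S100a4* stayed under 10 in both. *S100a6* and *Anxa1* reached a value of 10 in WT+AKI alone, so they could enter the comparison only through the library in which they were higher. The median log2 fold change of the 9 compared members was -2.12, beside 0.0135 over all compared genes. Without the filter on low values, 7 of 10 were at least 2-fold lower and the median was -1.63. The members had been listed with results of these libraries known, so the count describes them and is not a test.

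**Figure D1:**
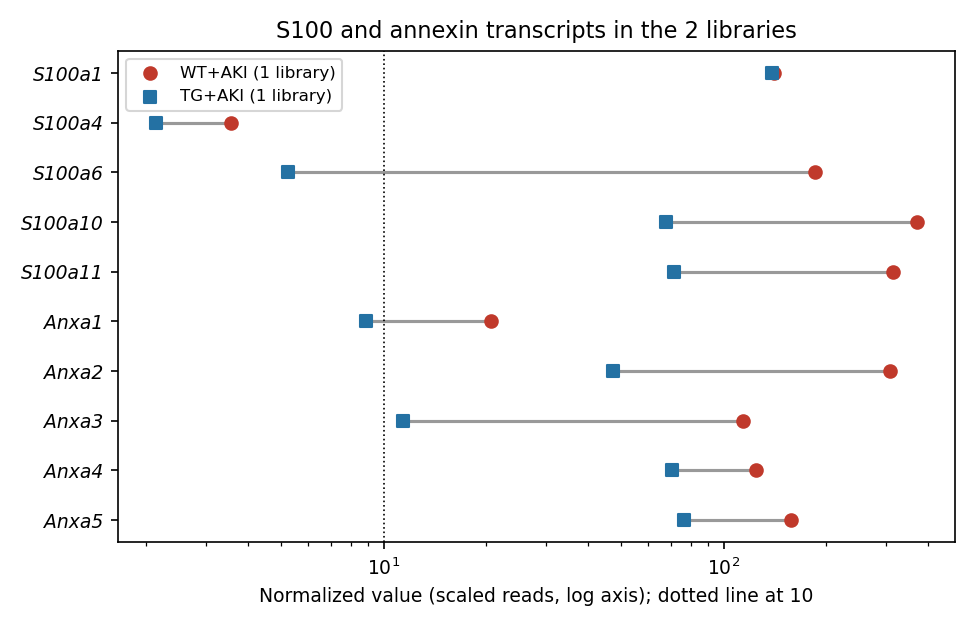
Normalized value (scaled reads, logarithmic axis) of each of the 10 members in the WT+AKI library (circles) and the TG+AKI library (squares), 1 library each, with a dotted line at the value of 10 used as a filter. *S100a6* spans the widest gap, from 186.3 to 5.22, and the symbols of *S100a1* (140.6 and 138.6) lie on each other.

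*S100a6* encodes calcyclin, an S100 protein of dividing and injured epithelial cells and of fibroblasts, and it differed most among the members. The wild-type library gave 7897 reads of it, a value of 186.3, and the transgenic library 173, a value of 5.22. In the transgenic library it was 35.7-fold lower [30.7 to 41.7]. Its log2 fold change, -4.91, took rank 8 from the lowest among the 10294 compared genes. In order of level among all listed genes, *S100a6* moved from rank 745 in WT+AKI to rank 11160 in TG+AKI. It lies on chromosome 3 at chr3:90612894-90614414 on the plus strand (mm10).

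*S100a10* encodes p11, the S100 protein that no longer binds calcium and is held in the complex with annexin A2. Counts were 15688 reads in the wild type and 2235 in the transgenic library, or values of 370.0 and 67.5. This put the transgenic library 5.48-fold lower [5.24 to 5.73]. It was the most abundant member by value in WT+AKI, at rank 259 of all listed genes. The gene lies at chr3:93555117-93564645 on the plus strand.

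*S100a11* encodes calgizzarin, a partner of annexin A1 that is common in epithelia. The wild-type library gave 13354 reads of it, a value of 315.0, and the transgenic library 2374, a value of 71.7. In the transgenic library it was 4.39-fold lower [4.21 to 4.59]. The gene lies at chr3:93520496-93526288 on the plus strand of the same chromosome. Of the 100-base words of its longest coding transcript, 34.0% also occur in the annotated genes *Gm12854* and *Gm7665*, so that its reads may have been divided or lost. Both of those genes were listed at low values, *Gm12854* at 1.84 and 0.513 and *Gm7665* at 2.05 and 0.574, and both were lower in TG+AKI.

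*S100a1*, an S100 protein best known from muscle, did not differ between the libraries beyond counting error. With 5963 reads in the wild type and 4589 in the transgenic library, it stood at 140.6 and 138.6, and its ratio of 0.985 had an interval that included 1 [0.948 to 1.02]. It lies at chr3:90511034-90514330 on the minus strand. The log2 fold change of *S100a1* was -0.29 after equal library totals were imposed, a scaling by which the median over all compared genes fell by 0.28. *S100a4* encodes metastasin, a protein of fibroblasts and leukocytes that binds non-muscle myosin. It was the least abundant member, with 151 reads in the wild type and 71 in the transgenic library, or values of 3.56 and 2.14. This put the transgenic library 1.66-fold lower [1.24 to 2.23], a wide interval. For *S100a4*, 50.9% of the 100-base words are shared with the overlapping annotated gene *Gm42674*, so its level is uncertain. The gene lies at chr3:90603770-90606045 on the plus strand.

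*Anxa2* encodes annexin A2, which binds phospholipids and, with S100A10, anchors plasminogen activation and actin to the membrane. The wild-type library gave 13061 reads of it, a value of 308.1, and the transgenic library 1562, a value of 47.2. In the transgenic library it was 6.53-fold lower [6.20 to 6.89]. The gene lies on chromosome 9, at chr9:69453683-69491792. *Anxa3* differed more than any other annexin member. There were 4824 reads of it in the wild type and 376 in the transgenic library, or values of 113.8 and 11.4. Its ratio was 0.0998 [0.0896 to 0.111], and the gene lies at chr5:96793385-96845968.

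*Anxa1* encodes annexin A1, a glucocorticoid-induced protein that dampens inflammation through formyl peptide receptors. Its level was low in both libraries, with 879 reads for a value of 20.7 in the wild type and 294 reads for 8.88 in the transgenic library. This put the transgenic library 2.34-fold lower [2.04 to 2.67]. *Anxa5*, whose protein binds exposed phosphatidylserine and is used as a stain for dying cells, stood at 158.4 and 76.6. Its level was 2.07-fold lower [1.97 to 2.16], an interval that includes 2-fold, so counting error left it on no clear side of the threshold. *Anxa4*, an annexin of epithelial cells, was just inside the threshold with values of 124.8 and 70.3. In the transgenic library it was 1.77-fold lower [1.69 to 1.86]. *Anxa4* passed 2-fold with equal library totals (log2 fold change -1.09), and with a pseudocount of 10 *Anxa1* (-0.70) and *Anxa5* (-0.96) fell short of it. *Anxa1* lies at chr19:20373434-20390671, *Anxa5* at chr3:36448923-36475887 and *Anxa4* at chr6:86736840-86793634, all on the minus strand. Short stretches of exon overlap another annotated gene in *Anxa2* (98 bases, *Gm16144* on the opposite strand), *Anxa3* (112 bases, *Gm42603* on the same strand) and *Anxa4* (75 bases, *Gm44036* on the opposite strand).

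**Figure D2:**
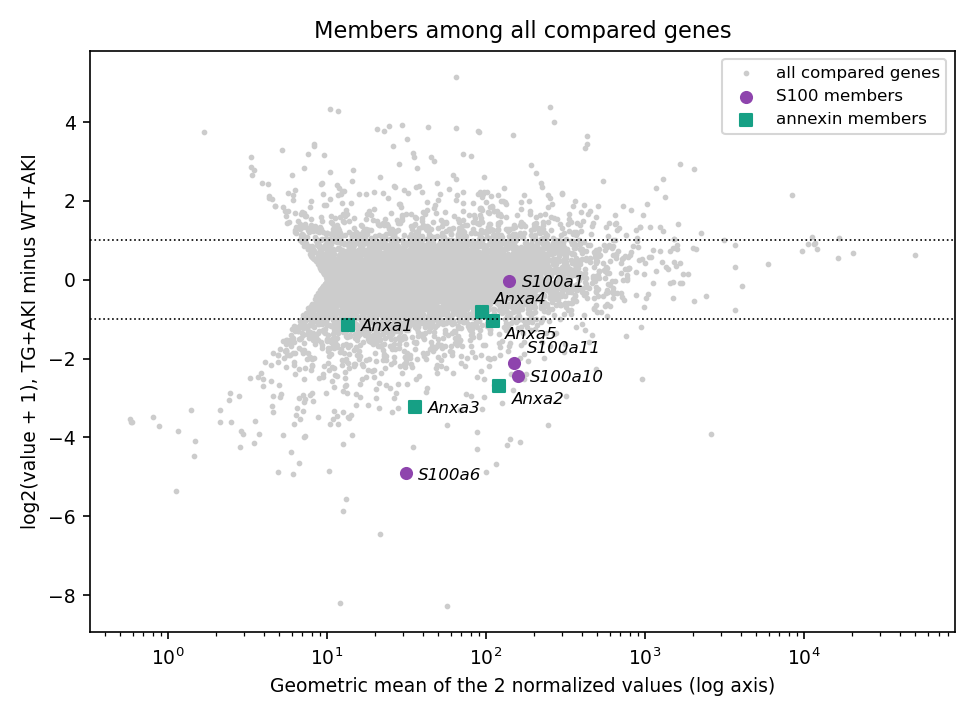
Each grey point is 1 of the 10294 compared genes, by the geometric mean of its values in the 2 libraries (logarithmic axis) and its difference in log2(value + 1), TG+AKI minus WT+AKI, with dotted lines at the 2-fold threshold. *S100a6* (-4.91) and *Anxa3* (-3.22) lie at the lower edge of the cloud and *S100a1* (-0.0213) in its middle.

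The order of the levels among the members, per kilobase of the longest coding transcript, differed between the libraries. In WT+AKI the value per kilobase was highest for *S100a11* at 616.4, followed by *S100a10* at 540.2, *S100a6* at 254.8, *Anxa2* at 212.9 and *S100a1* at 207.8. *Anxa5* (91.5), *Anxa3* (71.3), *Anxa4* (61.5), *Anxa1* (12.4) and *S100a4* (7.15) came after them. *Anxa2* and *S100a1* did not differ there beyond counting error. In TG+AKI the value per kilobase was highest for *S100a1* at 204.7, followed by *S100a11* at 140.3 and *S100a10* at 98.5. *Anxa5* (44.3), *Anxa4* (34.6) and *Anxa2* (32.6) were next, and *S100a6* (7.15), *Anxa3* (7.12), *Anxa1* (5.30) and *S100a4* (4.31) were last. In TG+AKI neither *Anxa4* and *Anxa2*, nor *S100a6* and *Anxa3*, nor *Anxa1* and *S100a4* differed beyond counting error. Shared sequence also limits the order, with 34.0% of the 100-base words of *S100a11* and 50.9% of those of *S100a4* shared, but none of *S100a1*. Reads of *S100a11* may have been divided or lost, so its place below *S100a1* in TG+AKI is uncertain. *S100a11* was first in WT+AKI and *S100a1* first in TG+AKI also per kilobase of all annotated exons. That length is no separate check on them, since it was 511 bases for *S100a11* either way, and 694 in place of 677 for *S100a1*. The order further down depended on the length used.

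The members made up less of their families in the transgenic library. The 5 S100 members held 73.2% of the S100 reads in WT+AKI and 53.5% in TG+AKI. Shares are computed within a library, so the scaling between libraries cancels in them, but not in the summed values. The 12 listed S100 genes summed to 1387.6 in WT+AKI and 532.9 in TG+AKI, 2.60-fold lower [2.56 to 2.65]. *S100a6*, *S100a10* and *S100a11* together held 62.8% of the reads of the family in WT+AKI [62.4 to 63.2] and 27.1% in TG+AKI [26.4 to 27.8]. *S100a6* alone held 13.4% and 0.980%. *S100a1* held 10.1% of the family in WT+AKI and 26.0% in TG+AKI with a near-equal value in both. The share of *S100a4* was also higher in TG+AKI, at 0.402% against 0.257%. *S100g*, which encodes calbindin-D9k and is no member, held 21.5% and 36.6%, and it was the largest single share in TG+AKI.

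The 11 listed annexins summed to 1034.6 in WT+AKI and 495.7 in TG+AKI, 2.09-fold lower [2.05 to 2.13], which again depends on the scaling. *Anxa2* held 29.8% of the reads of the family in WT+AKI [29.3 to 30.2] and 9.52% in TG+AKI [9.07 to 9.97]. The 5 annexin members together held 70.1% and 43.2%, and *Anxa2* and *Anxa3* together 40.8% and 11.8%. *Anxa5* kept its share, with 15.3% and 15.5%, and that of *Anxa4* was higher in TG+AKI, with 12.1% and 14.2%. The most abundant annexin by reads was *Anxa2* in WT+AKI and *Anxa7*, with 31.7% of the family, in TG+AKI.

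**Figure D3:**
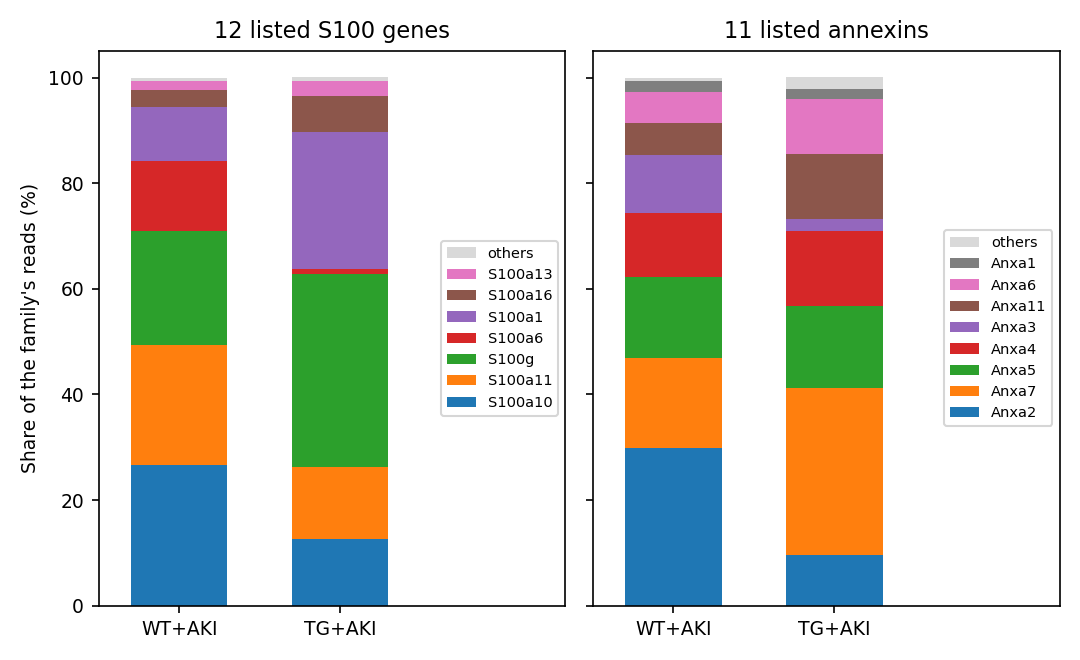
Stacked bars give the share (%) of each gene in the reads of the 12 listed S100 genes (left) and of the 11 listed annexins (right) in each library, with genes of small share summed as others. The parts of *S100a10*, *S100a11* and *S100a6* shrink from 62.8% to 27.1% in total, and that of *Anxa2* from 29.8% to 9.52%.

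Genes whose proteins bind each other did not all change in step. The ratio of *S100a10* to *Anxa2* per kilobase was 2.54 in WT+AKI [2.48 to 2.60] and 3.02 in TG+AKI [2.83 to 3.23], so the ratio was 1.19 times as high in the transgenic library [1.11 to 1.28] while each gene was more than 5-fold lower. The ratio of *S100a11* to *Anxa1* fell from 49.8 to 26.5, by 1.88-fold [1.64 to 2.16]. The ratio of *S100a6* to *Anxa2* fell from 1.20 [1.16 to 1.23] to 0.219 [0.186 to 0.257], by 5.46-fold [4.65 to 6.40]. These ratios also do not depend on the scaling between libraries, and each rests on 1 library of each kind.

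The 6 other genes of both families that were compared were lower by less than 2-fold, while several below a value of 10 differed by more. Of 7 other S100 genes listed, 3 were compared and none was at least 2-fold changed, with a median log2 fold change of -0.58. *S100g*, whose protein buffers calcium in the distal nephron, stood at 298.8 and 195.3, 1.53-fold lower [1.49 to 1.58]. *S100a13* stood at 24.3 and 15.9, a ratio of 0.656 [0.589 to 0.729], and *S100a16* at 44.2 and 35.4, 1.25-fold lower [1.16 to 1.34]. The neutrophil genes *S100a8* and *S100a9*, which encode the subunits of calprotectin, were low in both libraries, with 41 and 13 reads and with 133 and 13 reads. *S100a9* was 7.99-fold lower in TG+AKI with a wide interval [4.52 to 15.4]. *S100a14* and *S100a7a* had at most 22 reads in a library. *S100a3*, *S100a5*, *S100b* and *S100z* were looked up by symbol and were not among the genes of the table.

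Of 6 other annexins listed, 3 were compared, none was at least 2-fold changed, and their median was -0.17. *Anxa7*, whose protein acts in vesicle fusion, stood at 177.2 and 156.9, 1.13-fold lower [1.09 to 1.17]. *Anxa6* stood at 61.1 and 51.5, 1.19-fold lower [1.12 to 1.26]. *Anxa11* stood at 63.3 and 61.6, a ratio of 0.972 whose interval held 1 [0.917 to 1.03]. Reads of *Anxa11* may be divided with other annotated genes, since 25.2% of its 100-base words are shared. *Anxa13*, an annexin of gut and kidney epithelium, went the other way at a low level, from 0.920 (39 reads) to 6.61 (219 reads), 7.19-fold higher in TG+AKI [5.10 to 10.4]. *Anxa8* had 52 and 9 reads, a ratio of 0.222 [0.0960 to 0.454], and *Anxa9* stood at 5.12 and 4.47. *Anxa10* was not among the genes of the table.

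**Figure D4:**
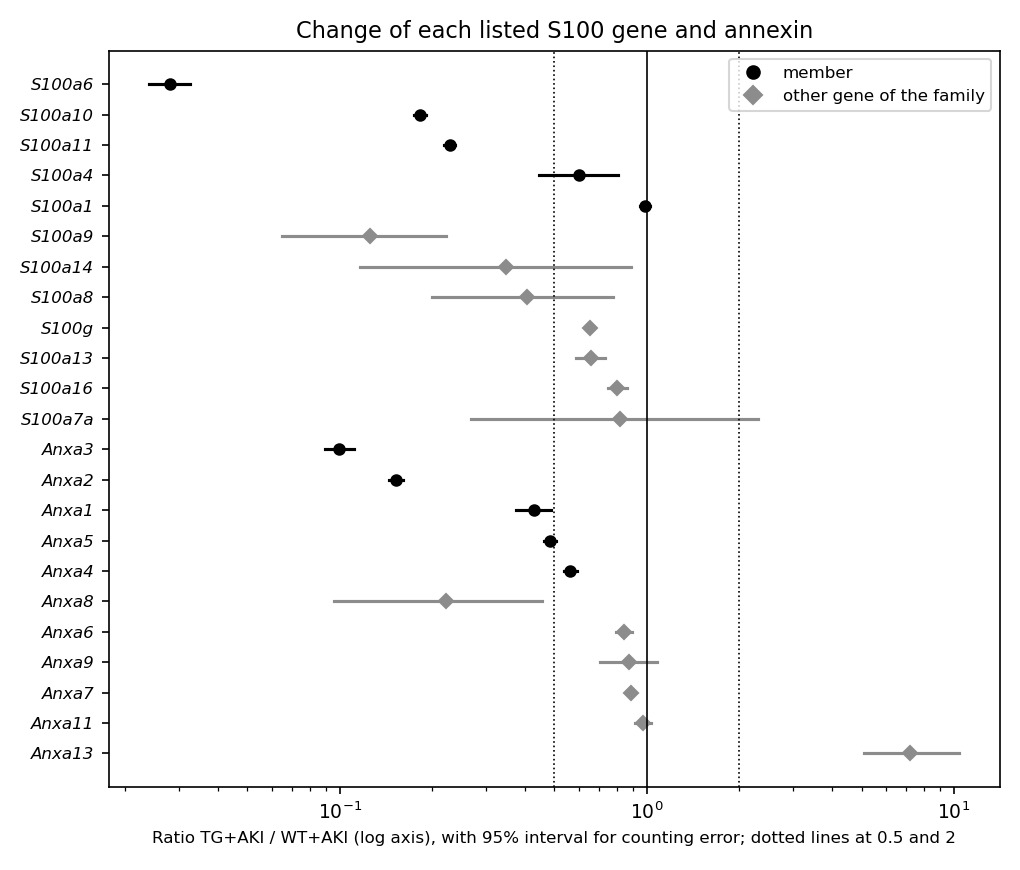
Ratio of TG+AKI to WT+AKI (logarithmic axis) for every listed S100 gene and annexin, with 95% intervals for counting error, members in black circles and other genes of the families in grey diamonds. *S100a6* lies farthest to the left at 0.0280, the abundant genes that are no members (*S100g*, *Anxa7*, *Anxa11*) lie between 0.653 and 0.972, and *Anxa13* lies alone on the right at 7.19.

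The S100 members of lowest and highest change are close neighbours. *S100a1*, *S100a4* and *S100a6* lie in a cluster of 9 listed S100 genes within 184.7 kb of chromosome 3, from *S100a1* to *S100a9* (chr3:90511034-90695721, mm10). Of the 4 cluster genes that were compared, *S100a6* was at least 2-fold lower and *S100a1*, *S100a13* and *S100a16* were not. *S100a4*, the nearest listed neighbour of *S100a6*, had a log2 fold change of -0.54. Among 14 compared genes that flank the cluster within 500 kb, 1 (*Tpm3*) was at least 2-fold lower and the median was -0.12. All 14 lie on the side of *S100a1*, and the other side held 1 listed gene, which stayed under 10.

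**Figure D5:**
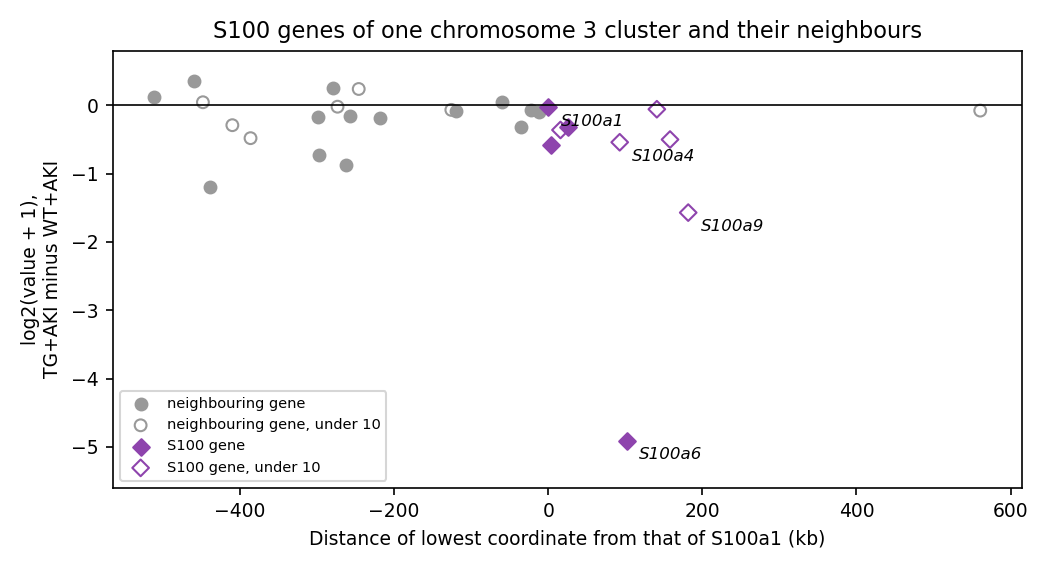
Difference in log2(value + 1), TG+AKI minus WT+AKI, of each listed gene in the S100 cluster and its flanks against the distance (kb) of its lowest coordinate from that of *S100a1*, with S100 genes as diamonds, other genes as circles, and open symbols for genes under a value of 10 in both libraries. *S100a6* lies alone at -4.91 while its compared neighbours in the cluster lie between -0.58 and -0.0213.

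Promoter windows from RefSeq (GRCm38.p6, 250 bases before to 50 after a transcript start) were searched for short motifs on both strands, because 7 members were lower together. Of the 10 members, 8 had a window in the table, with 9 windows in all, and *S100a10* and *Anxa3* had none. The letters TGANTCA, which AP-1 dimers of Fos and Jun proteins bind, were found in 2 of the 9 member windows, those of *S100a11* and *Anxa2*, and in 7.81% of all 32851 windows. The window of *S100a11* held them at 2 places. A window of *S100a16*, which is no member and was 1.25-fold lower, held them too, so they were not particular to members. The matches in member windows are printed because no other member window held these letters, read in the direction of the gene, with the match in capitals.

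*S100a11* (chr3:93520349-93520378, plus strand): cagagacctgtTGAGTCAcagggactacaa
*S100a11* (chr3:93520447-93520476, plus strand): cgggcacagccTGAGTCAggctgaggggcg
*Anxa2* (chr9:69453577-69453606, plus strand): tccaagttggaTGAGTCAcccagcagggtg

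In these the first matched base lies 136 and 38 bases before the start of *S100a11* and 95 bases before that of *Anxa2*. The E-box letters CACGTG were found in the windows of *S100a6* and *S100a11*, in a window of *Anxa7*, which is no member, and in 7.15% of all windows. The window of *S100a6*, the member that changed most, held this single E-box just after its start, at chr3:90612896-90612925 on the plus strand, and no TGANTCA.

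*S100a6*: agagtttcgagtCACGTGccagaagggaaa

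The letters GGAATG of TEAD factors were found in the window of *Anxa1* alone among the members (14.7% of all windows), TGACGT of CREB factors in that of *Anxa4* (7.51%), and TTCNNNGAA of STAT factors in none (8.30%). The letters TATAAA were found in the windows of *S100a4*, *Anxa1* and *Anxa2* (13.6%). An NF-kB pattern of 3 G, any 5 bases and 2 C was found in 8 of the 9 member windows and in 50.8% of all windows. The windows with it included those of *S100a1* and *Anxa4*, which were not at least 2-fold lower. The fixed letters of this pattern are G and C alone. The member windows with it held 47.3% to 65.3% G and C, the one without it 43.0%, and the median of all windows was 52.7%. A match is a run of letters and not a measured binding site.

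Among 19 listed receptors and binding partners of both families, not of the members alone, 15 were compared. Of these, 6 were at least 2-fold lower in TG+AKI, beside 7.12% of all compared genes. None was at least 2-fold higher, beside 5.74%, and the median log2 fold change was -0.86. *Ahnak*, whose giant scaffold protein is held by annexin A2 and S100A10, stood at 375.9 and 90.0, 4.18-fold lower [4.02 to 4.34]. *Myh9*, the non-muscle myosin bound by S100A4, stood at 558.2 and 244.8, 2.28-fold lower [2.22 to 2.34]. *Cacybp*, the binding partner of calcyclin, stood at 43.6 and 57.9, 1.33-fold higher [1.24 to 1.42], while *S100a6* itself was 35.7-fold lower. *Pdcd6* (67.5 and 55.7) and *Sri* (106.9 and 103.0), calcium-binding partners of annexins, were within 2-fold.

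Of the plasminogen system, for which the annexin A2 complex is a surface receptor, *Plat*, tissue plasminogen activator, stood at 329.5 and 62.6, 5.27-fold lower [5.03 to 5.52]. *Plaur*, the urokinase receptor, stood at 62.5 and 2.54, 24.6-fold lower [19.8 to 31.0]. *Plau*, urokinase itself, stood at 537.2 and 458.4, 1.17-fold lower [1.15 to 1.20], and the plasminogen receptor *Plgrkt* at 20.5 and 17.7. *Myof*, a ferlin of membrane repair, stood at 227.6 and 28.7, 7.93-fold lower [7.41 to 8.48], and the ferlin *Dysf* at 40.6 and 21.4.

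Of the receptors, *Tlr4*, which secreted calprotectin binds, stood at 14.7 and 6.31, 2.33-fold lower [1.99 to 2.74], an interval that includes 2-fold. *Ager*, the receptor RAGE, had 97 and 45 reads. *Fpr1*, a receptor of annexin A1, had 73 reads in the wild type but 3 in the transgenic library, a ratio of 0.0526 [0.0106 to 0.160]. *Fpr2* was not among the genes of the table. *Bsg*, a further receptor of calprotectin, stood at 313.2 and 354.7. The calcium channel *Trpv5*, which S100A10 and annexin A2 carry to the surface of distal tubules, stood at 27.2 and 14.6, 1.87-fold lower [1.68 to 2.08], and *Trpv6* and *Kcnk3* were under 10. *Pla2g4a*, a phospholipase that annexins inhibit, stood at 11.2 and 7.79.

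Transcripts of injury, macrophages and fibroblasts were mostly lower in TG+AKI, as most members were, while those of the proximal tubule were higher. In whole kidney RNA, fewer cells of a type and less RNA per cell cannot be told apart. Of 10 genes of the injured tubule, all 9 that were compared were at least 2-fold lower, and their summed value was 13301.8 in WT+AKI and 909.4 in TG+AKI, with *Havcr1* (KIM-1) at 1168.8 and 2.78 and *Lcn2* (NGAL) at 249.8 and 1.87. The 7 proximal tubule genes were all at least 2-fold higher, with sums of 2405.3 and 11575.7. Of 8 macrophage genes, 7 were compared and 5 were at least 2-fold lower, with sums of 174.5 and 84.4, although *Csf1r* (37.5 and 43.0) and *Mrc1* (113 and 141 reads, a ratio of 1.60 [1.24 to 2.06]) were higher. Of 6 fibroblast genes, 5 were compared and 3 were at least 2-fold lower, with sums of 501.8 and 218.7. Of 8 neutrophil genes *Csf3r* alone was listed, with 139 and 21 reads, and of 5 T cell genes 4 were listed, none above 0.755 in a library. The 5 urothelial genes summed to 5.14 and 2.60, none of them above 2.59 in a library. Most of that difference lay in *Krt5*, at 2.59 and 0.332, whereas the ratios of *Upk1a*, *Upk1b*, *Upk2* and *Upk3a* had intervals that included 1. None of the 4 endothelial genes (sums of 324.0 and 302.6) and none of the 3 podocyte genes (331.1 and 384.9) was at least 2-fold changed. Of the 6 collecting duct genes (340.9 and 486.5), 1 was at least 2-fold higher, *Slc4a1* at 11.5 and 51.3. Of the 3 thick ascending limb genes (1831.5 and 2977.9), 2 were compared and 1 was at least 2-fold higher, *Slc12a1* at 395.3 and 1048.5. Of 3 fat cell genes *Cidec* alone was listed, at 5.66 and 0.181. The part of cell composition in the change of the members was not tested, and the genotype and the state of injury of the 2 libraries cannot be told apart.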

How the data were processed

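Libraries had been made from whole kidney RNA with a stranded mRNA kit (TruSeq). Per the methods and the submitters' processing notes, reads were aligned with STAR 2.7.3a to mm10, and counted per gene with HTSeq. The methods give DESeq2 for normalization, Cufflinks 2.2.1 for FPKM levels and FastQC for read quality, and the notes also name edgeR. The annotation and strand setting of the counting are not given in the sources used here. The authors deposited 1 signal value per gene and library, a read count divided by a library factor. Divided by the lowest value of its column, each value (100%) came within 0.01 of a whole number, which gave back the reads. The deposited scaling equals edgeR's TMM factors (1.10 and 0.909), not the DESeq2 size factors (1.14 and 0.879).

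No count model could be fitted to 1 library per group. An exact two-sided binomial test on the reads (Benjamini-Hochberg adjusted p under 0.05), which compares the libraries and not the conditions, separated 8275 of 10294 genes, including 8 of the 9 compared members. Log2 fold changes used a pseudocount of 1 and understate changes of low genes. No gene of the table was at 0 in either library. The methods name no molecular identifiers, so PCR copies may have been counted as separate reads. The intervals hold counting error alone and could then be too narrow even for that. Levels per kilobase and shared 100-base words used GENCODE M21 transcripts. NCBI gene coordinates of GRCm38.p6 were joined by gene ID (19780 of 19829 found), which is the assembly named mm10 in the notes.

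The members, the gene lists and the motifs were chosen with earlier results of these data known. The named genes were *Inmt*, the members, the listed genes of both families, partners and receptors, and counts with the defining genes of each marker list. *Gm12854*, *Gm7665* and *Gm42674* were named for shared sequence after their values could be seen. *Csf1r*, *Mrc1*, *Slc4a1*, *Slc12a1*, *Tpm3*, *Krt5* and the *Upk* genes were named after their values were seen. The procedures were tested on simulated data. Python 3.11.15 with scipy 1.17.1 and R 4.3.3 with edgeR 4.0.16 and DESeq2 1.42.0 were used. Alternatives were other pseudocounts, scalings and filters and the addition of the binomial test.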

Additional observations from a re-analysis of the deposited data

How the results depend on the processing

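All 10 members kept their direction under the 6 alternatives in pseudocount and scaling. A pseudocount cannot reverse a direction, and edgeR TMM factors repeat the deposited scaling, so only the other scalings could have done so. The direction of *S100a1* carries no weight, at -0.0213 and, with DESeq2 size factors, -0.00507. No member was at least 2-fold higher under any of the 9 alternatives. The number of members at least 2-fold lower was between 5 and 8. With a pseudocount of 10 their median log2 fold change was -1.99, and 408 of all compared genes were lower and 372 higher. With equal column totals the median was -2.39, with 1141 genes lower and 359 higher, and higher genes made up 23.9% of the changed ones in place of 44.6%. With the median ratio of genes with values of at least 100 in both libraries set to 1, the median was -2.26, and the share of higher genes was 33.4%. With no filter on low values the median was -1.63, since *S100a4* entered, and 1150 genes were lower. With a filter of 50 the median was -2.28 over the 8 members left, with 295 genes lower and 374 higher among 4369, a share of 55.9%. A pseudocount of 10 moved 8 of the 10 members by more than counting error, equal totals 9 and the median ratio 6. A pseudocount of 0.1 and DESeq2 size factors moved none of them. The edgeR TMM setting repeats the deposited scaling, so it could not move them. All 7 members also passed the exact binomial test. So did all 733 lower and 591 higher genes, so that the test did not set the members apart. No paired analysis was possible because there was 1 library per group. For the same reason no library could be left out. Depth limits *S100a4*, *S100a8*, *S100a9* and *Fpr1*, whose intervals are wide.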
